A study of Mus musculus with 12 samples.

Results

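The comparison set 6 libraries of Ba/F3 cells carrying ETV6 WT or ETV6 I209S P214L against 6 libraries of the same cells carrying ZsGreen alone or ETV6 P214L. These 12 libraries are all 12 of the series, and each was placed on its side by the construct in its label. The libraries with ETV6 WT and I209S P214L are called the functional side and those with ZsGreen and P214L the growth side, after the names in the headers of the deposited table; growth itself was not among the measurements used here. Ba/F3 is a mouse line that its label describes as pro-B cells and that normally needs interleukin-3 (IL-3) to live. Every group carried NRAS G12D, an active form of a RAS protein, was placed by sorting in IL-3-free medium (day 0), had that medium changed on day 2, and gave its RNA on day 3. The groups were ETV6 WT, I209S P214L, ZsGreen (a fluorescent protein, the control) and P214L, with 3 libraries each, and the ETV6 constructs also carried ZsGreen. By the study's design P214L gives ETV6 a nuclear export sequence, I209S breaks that sequence again, and the question was how closely the double mutant follows ETV6 WT. The sources used here do not say from which species the ETV6 cDNA came, whether a line is 1 clone, or whether the 3 libraries of a group came from separate cultures, so a p-value measures only the spread between these libraries, which may be technical.

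ETV6 is a transcription factor of the ETS family that binds DNA through its ETS domain and mainly lowers transcription of its targets, together with corepressors and histone deacetylases. It is needed for blood cell and platelet formation, and inherited ETV6 variants are known for low platelet counts and a raised risk of leukaemia. A factor kept out of the nucleus cannot act on its target genes, which is why a created export sequence is of interest.

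The libraries held 14301683 to 18607595 counts, and 14794 of 56748 genes passed the filter on low counts. In a principal component analysis the sides separated on component 1 (40.8% of the variance), and on component 2 (14.2%) ZsGreen 1, at 70.7, was farthest from the rest. ETV6 WT 1 and I209S P214L 1 lay at 22.4 and 21.2 on component 2, and the other 9 libraries lay below 0. The share of counts from 18S ribosomal RNA was 1.35% to 4.70% on the functional side and 2.92% to 5.90% on the growth side, lowest in I209S P214L 1 at 1.35% and ETV6 WT 1 at 1.58%. Of 15 markers of pro-B and lymphoid cells, 4 passed the filter: Ptprc, Il3ra, Cd79a and Cd79b. Rag1, Il7r, Dntt and Igll1 had a count of 0 over the 12 libraries, and Ebf1, Pax5 and Kit had 3, 6 and 5, so these pro-B markers were absent or nearly so. Markers of other cell types were present on both sides. The 11 tested neutrophil and monocyte markers summed to 19.8 to 31.9 CPM (scaled counts relative to the library total) in functional libraries and 83.2 to 230 CPM in growth libraries, 10 of them were lower on the functional side, and Csf3r, Ly6g and Ly6c2 were at 0. The 7 tested mast cell and basophil markers summed to 2389 to 3057 CPM in functional libraries and 1739 to 1888 CPM in growth libraries, with 4 of them higher, 2 lower and Mcpt8, Tpsb2 and Prss34 at 1, 1 and 0 counts. That sum is nearly all Gata2, a transcription factor that other blood progenitors also express, at 2584 ± 295 CPM in functional and 1789 ± 55.5 CPM in growth libraries (SD, n = 6 each). The mast cell proteases Mcpt4 (4.23) and Cma1 (2.05) rose on the log2 scale, whereas the IgE receptor subunit Ms4a2 (-2.05) and the histamine enzyme Hdc (-1.52) fell. The 15 tested erythroid and megakaryocyte markers summed to 1005 to 1220 CPM in functional libraries and 904 to 1188 CPM in growth libraries, with 7 higher and 5 lower. Haemoglobin RNA rose: Hba-a1, which has a near-identical copy, averaged 255 ± 58.5 CPM in functional and 29.4 ± 10.1 CPM in growth libraries (log2 fold change 3.11, adjusted p = 6.29e-10). Hbb-bs averaged 11.6 ± 5.16 CPM in functional and 0.202 ± 0.307 CPM in growth libraries. The erythroid factor Klf1 (-0.92) and the platelet genes Pf4 (-2.37), Selp (-1.75) and Gp9 (-1.31) fell. Those shifts ran with the sides, and their part in the results below was not tested; in bulk RNA fewer cells of a type cannot be told apart from less RNA per cell. Gene-level Etv6 counts averaged 109 CPM with ETV6 WT, 99.1 CPM with I209S P214L, 81.7 CPM with ZsGreen and 103 CPM with P214L. Pooled, Etv6 was 0.17 ± 0.09 (SE) higher on the log2 scale in functional libraries and was not called (adjusted p = 0.126). It was called when each group had its own mean (adjusted p = 0.0316). ETV6 WT against ZsGreen gave 0.41 (edgeR, adjusted p = 0.00164). I209S P214L against P214L, which both carry ETV6, gave -0.06 (adjusted p = 0.708). Whether reads of the constructs count at mouse Etv6 is not known, so these values do not measure construct expression.

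With 6 libraries a side, 3431 genes were higher (23.2% of those tested) and 3409 lower (23%) on the functional side, 6840 in all (46.2%), by edgeR's quasi-likelihood test at an adjusted p under 0.05. The libraries of the sides did not overlap for 4233 genes (28.6% of those tested). The same genes were also tested with 3 libraries against 3. ETV6 WT against ZsGreen gave 5580 calls (37.7%), ETV6 WT against P214L 4319 (29.2%), I209S P214L against P214L 4884 (33%) and I209S P214L against ZsGreen 6139 (41.5%). These 4 comparisons share libraries with one another and with the pooled one, so they are not independent. Among the 6840 pooled calls, 3381 were made in all 4 smaller comparisons and 6334 in at least 1 of them.

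The remaining 506 genes (3.42% of those tested) were called with 6 a side and in none of the 4 comparisons of 3 against 3, and they are the set described here. Those comparisons came from 1 fit of all 12 libraries. With each fitted on its own 6 libraries instead, 559 genes were called with 6 a side only, of which 334 belonged to the 506. On the functional side 297 of the 506 were higher (2.01% of those tested) and the others lower (1.41%). They comprised 362 protein-coding genes, 77 long non-coding RNAs and 43 processed pseudogenes, with few genes of other kinds; reads of pseudogenes can belong to the parent gene. Their median absolute log2 fold change was 0.36, against 0.49 for all 6840 called genes. A change under 0.25 on the log2 scale was found in 170 of the 506 (33.6%) and in 927 of the 6840 (13.6%), as the plot of change sizes shows. At the other end, 112 of the 506 (22.1%) changed by 1 or more, against 1198 of the 6840 (17.5%), so the set holds large changes as well as small ones. These were mostly barely expressed genes, since 65 of the 112 had a mean level under 1 CPM. These sizes follow from how the genes were chosen and were not tested again.

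**Figure D1:**
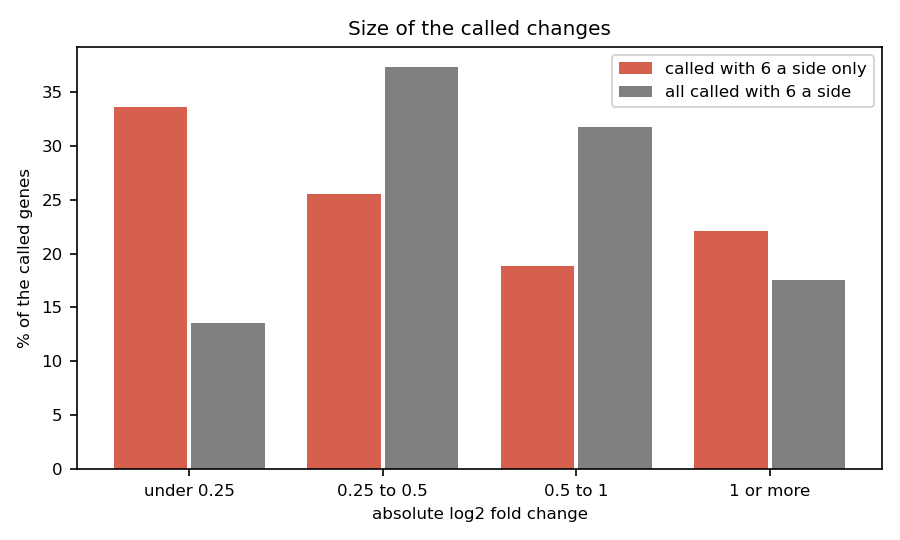
Size of the called changes: bars give the percentage of genes in 4 bands of absolute log2 fold change, for the 506 genes called with 6 a side only and for all 6840 called genes. The 506 hold a larger share under 0.25 (33.6% against 13.6%) and a smaller share between 0.5 and 1 (18.8% against 31.7%), and at 1 or more they hold 22.1% against 17.5%.

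For the 506, the median SE of the log2 fold change was 0.127 with 6 a side and 0.182 to 0.184 with 3 a side. Over all tested genes it was 0.111 with 6 a side and 0.146 to 0.147 with 3 a side. The 506 were chosen by these same fits. Their adjusted p lay between 0.00558 and 0.05 in the pooled test. In the smaller comparisons 63 of them had an unadjusted p under 0.05 in none of the 4, 172 in 1, 219 in 2, 26 in 3 and 26 in all 4. Overlap between sides was usual, since the libraries stood fully apart for 59 of the 506. That compares with 4208 of all 6840 called genes and 28.6% of all tested genes. The low count follows in part from how the 506 were chosen. Glb1 lay just inside the threshold (log2 fold change 0.16, adjusted p = 0.04998) and Rpl10 just outside it (-0.12, adjusted p = 0.05004). The authors' deposited table gives its own pooled comparison, coded there as growth over functional. There 6845 tested genes (46.3%) are past an adjusted p of 0.05. Of the 506 genes, 454 are past it in the authors' deposited table in the same direction as here, against 6736 of all 6840 called genes. None of the 6840 is past it in the opposite direction. The authors' comparison draws on the same libraries, so it is not an independent check.

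Among the leading protein-coding genes, which are the 12 higher and 12 lower with the smallest p and a mean of at least 5 CPM, the log2 fold changes were 0.16 to 0.50 for the higher and -0.43 to -0.15 for the lower. Their adjusted p in the smaller comparisons lay between 0.0504 and 0.152, so each fell a little short there. Libraries did not overlap for 6 of the 24, against 28.6% of all tested genes. Every one of the 24 stayed called when any 1 library was left out. With ETV6 WT 1, I209S P214L 1 and ZsGreen 1 all left out, Hyi (adjusted p = 0.0673), Klhl15 (0.0609), Zfp281 (0.0805), Psmb1 (0.0566) and B9d2 (0.0524) missed the threshold, besides the 5 genes named below with a loss in the absence of the first 2 libraries. Estimates of the 24 from ETV6 WT against ZsGreen and from I209S P214L against P214L, which share no library, are drawn beside the pooled ones.

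**Figure D2:**
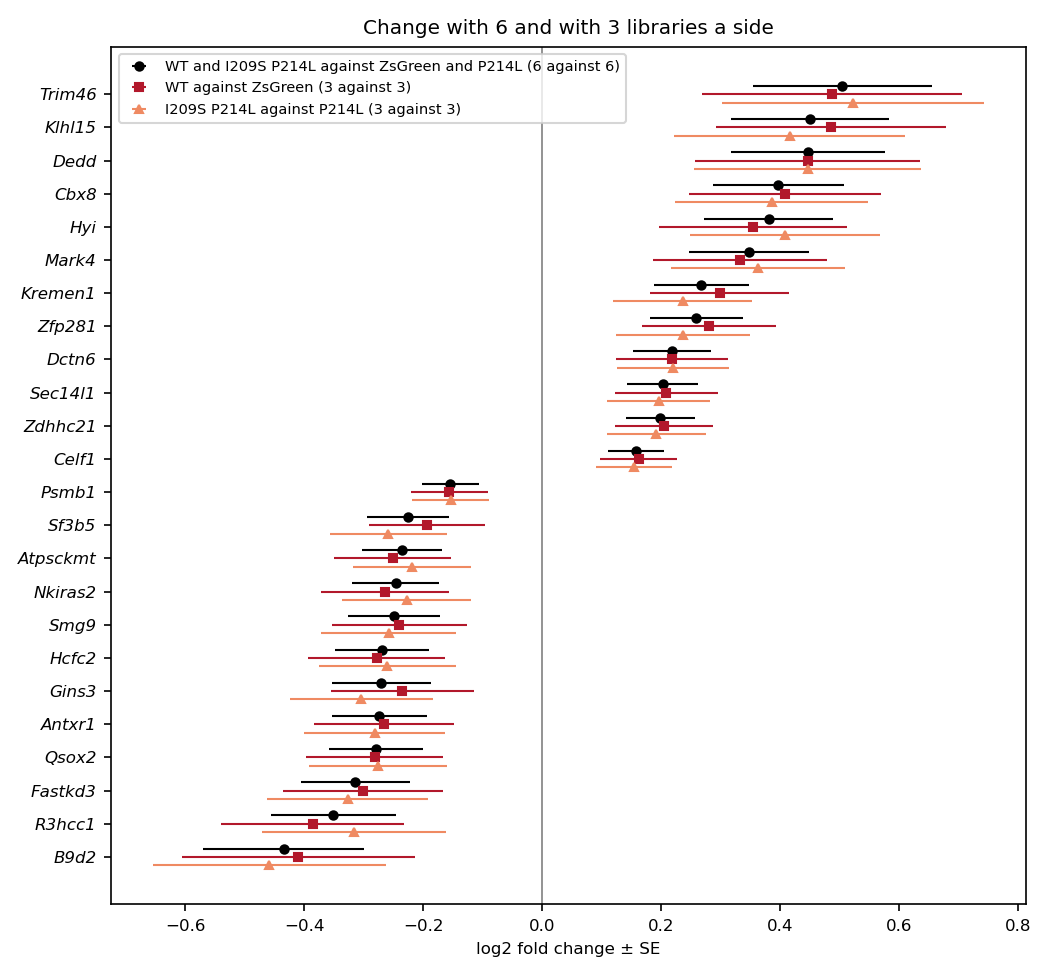
Log2 fold change of the 24 leading genes, functional over growth side, with bars of 1 SE: black circles use 6 against 6 libraries, red squares ETV6 WT against ZsGreen, and orange triangles I209S P214L against P214L. For every gene the 3 estimates lie on the same side of 0, and the pooled bar is shorter than the other 2. Both follow in part from how the 24 were chosen.

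Among the 12 higher, Cbx8 (ENSMUSG00000025578, mm39 chromosome 11, 118927131 to 118931795, minus strand) encodes a chromobox subunit of polycomb repressive complex 1. It measured 19.5, 25.8 and 27.6 CPM (lowest, median, highest) in functional libraries and 14.8, 19.3 and 22.5 CPM in growth libraries. ETV6 WT 3 was the low functional library and overlapped the growth side, while all 6 functional libraries were above the growth median. The log2 fold change was 0.40 ± 0.11 (SE), adjusted p = 0.00609; without ETV6 WT 1 and I209S P214L 1, the libraries with the least 18S RNA, it was 0.31 with an adjusted p of 0.0515. Dedd (ENSMUSG00000013973, chromosome 1, 171156713 to 171169899, plus strand) encodes a death effector domain protein that binds DNA. It measured 9.2, 10.4 and 11.3 CPM in functional libraries and 5.6, 7.83 and 8.75 CPM in growth libraries, so the sides did not overlap. Its log2 fold change was 0.45 ± 0.13, adjusted p = 0.00828. Zfp281, a zinc-finger transcription factor, averaged 46.1 ± 3.02 CPM in functional and 38.5 ± 4.3 CPM in growth libraries (SD, n = 6 each), a log2 fold change of 0.26 (adjusted p = 0.0107).

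Further higher genes act in RNA binding, protein lipidation and receptor signalling. Celf1 (ENSMUSG00000005506, chromosome 2, 90770727 to 90849842, plus strand), an RNA-binding protein of splicing and mRNA decay, measured 200.6, 214.3 and 220.2 CPM in functional libraries and 181, 191 and 200.8 CPM in growth libraries. The sides met only at their edges, where ETV6 WT 1 was the low functional library and ZsGreen 3 the high growth library. The log2 fold change of 0.16 ± 0.05 (adjusted p = 0.00983) is the smallest of the 12. Zdhhc21 (ENSMUSG00000028403, chromosome 4, 82716975 to 82778195, minus strand), a palmitoyltransferase that attaches lipid to proteins, measured 80.5, 86.7 and 94.6 CPM in functional libraries and 68, 77.7 and 80.8 CPM in growth libraries. One functional library lay within the growth range, and the log2 fold change was 0.20 ± 0.06 (adjusted p = 0.00868). Kremen1 (ENSMUSG00000020393, chromosome 11, 5141552 to 5211558, minus strand), a receptor for Dickkopf that dampens Wnt signalling, measured 29.2, 30.7 and 36.7 CPM in functional libraries and 22.9, 26.4 and 28.6 CPM in growth libraries. The sides did not overlap and the log2 fold change was 0.27 ± 0.08 (adjusted p = 0.00983), but without the 2 libraries low in 18S it was 0.19 with an adjusted p of 0.0800.

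Genes of the cytoskeleton and of vesicle or membrane biology were also among the higher. Mark4 (ENSMUSG00000030397, chromosome 7, 19158700 to 19192746, minus strand), a kinase that phosphorylates microtubule-associated proteins, measured 44.8, 52.8 and 70.9 CPM in functional libraries and 40.4, 44.3 and 49.2 CPM in growth libraries. The 2 high functional libraries were ETV6 WT 1 at 70.9 CPM and I209S P214L 1 at 68.3 CPM. The log2 fold change was 0.35 ± 0.10 (adjusted p = 0.00831) with all 12 libraries and 0.17 (adjusted p = 0.1004) without those 2. Trim46, which organises microtubules in neurons, rose by 0.50 on the log2 scale (adjusted p = 0.00964), with a value of 0.39 and an adjusted p of 0.0708 without the same 2 libraries. Sec14l1, a SEC14-like protein, rose by 0.20 (adjusted p = 0.00912), and by 0.17 with an adjusted p of 0.0519 without them. Dctn6, a subunit of the dynein partner dynactin, averaged 54.7 ± 4.01 CPM in functional and 47 ± 2.65 CPM in growth libraries, a log2 fold change of 0.22 (adjusted p = 0.00969). The other 2 of the 12 were Hyi, a hydroxypyruvate isomerase (0.38, adjusted p = 0.00727), and Klhl15, an adaptor of a CUL3 ubiquitin ligase (0.45, adjusted p = 0.00921).

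**Figure D3:**
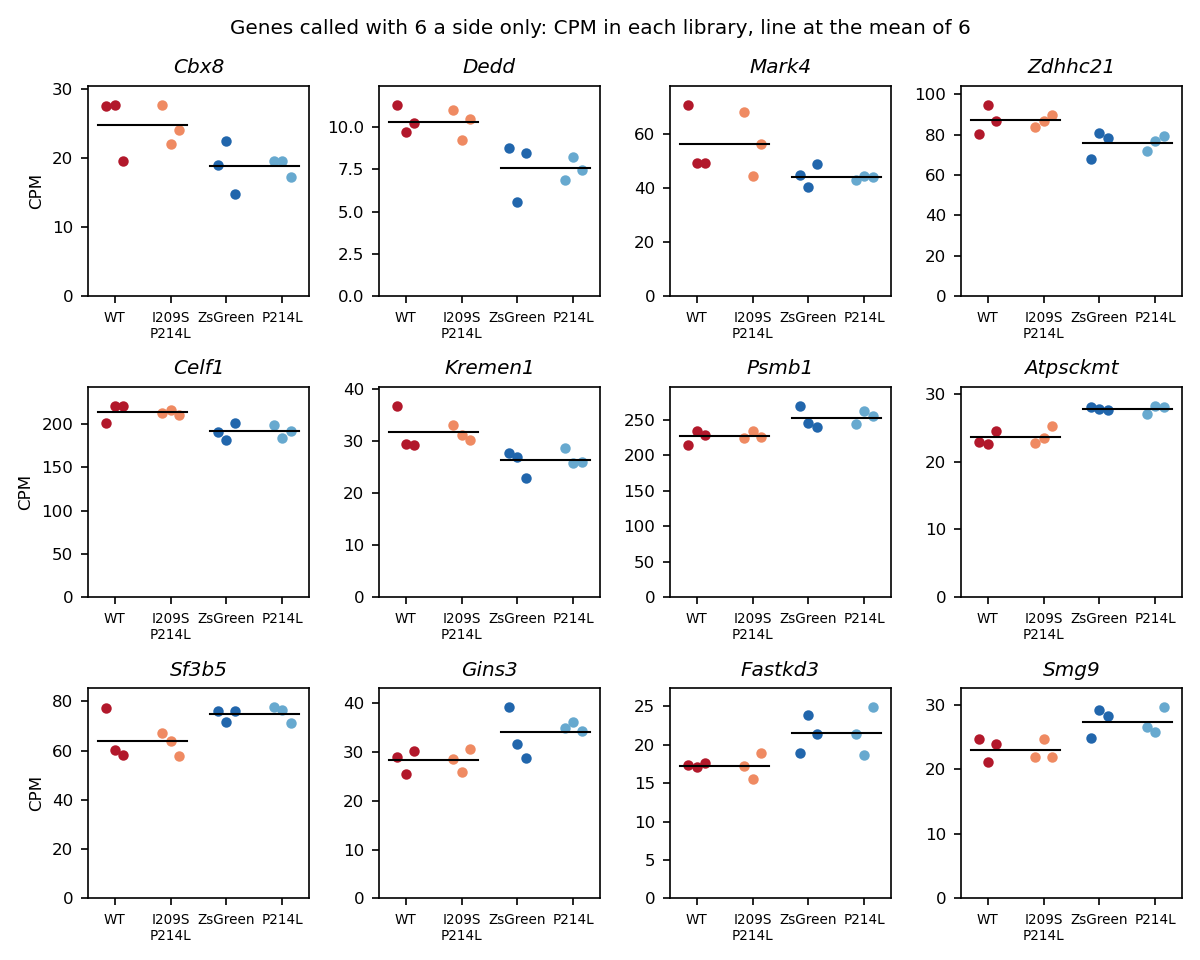
CPM of 12 of the 24 leading genes in each library, with functional groups at the left and growth groups at the right of each panel and a line at the mean of 6 libraries. The sides differ by less than the range within a side for several genes, as for Cbx8, and stand apart for Dedd, Kremen1, Psmb1, Atpsckmt and Smg9.

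Among the leading lower genes, several serve mitochondria, splicing, replication and protein turnover. Atpsckmt (ENSMUSG00000039065, chromosome 15, 31601998 to 31621373, plus strand), the methyltransferase of the c subunit of ATP synthase, measured 22.6, 23.2 and 25.2 CPM in functional libraries and 27, 27.8 and 28.2 CPM in growth libraries. The sides did not overlap and the growth libraries lay close together. The log2 fold change was -0.24 ± 0.07 (adjusted p = 0.00705), and it missed the threshold with no filter on low counts (adjusted p = 0.0535). Fastkd3 (ENSMUSG00000021532, chromosome 13, 68730353 to 68740457, plus strand), a protein of mitochondrial RNA metabolism, measured 15.6, 17.3 and 19 CPM in functional libraries and 18.6, 21.4 and 24.9 CPM in growth libraries. The edges of the sides overlapped, and the log2 fold change was -0.31 ± 0.09 (adjusted p = 0.00868). Psmb1 (ENSMUSG00000014769, chromosome 17, 15695283 to 15720013, minus strand), a subunit of the proteasome core, measured 215, 227 and 235 CPM in functional libraries and 239, 250 and 269 CPM in growth libraries. The sides did not overlap although the log2 fold change was only -0.15 ± 0.05 (adjusted p = 0.0123), and Psmb1 missed the threshold with no filter on low counts (adjusted p = 0.0635).

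Sf3b5 (ENSMUSG00000078348, chromosome 10, 12881087 to 12884927, plus strand), a subunit of the SF3b splicing complex, measured 57.6, 62 and 77.3 CPM in functional libraries and 71.2, 76 and 77.7 CPM in growth libraries. ETV6 WT 1 was the 1 high functional library, within the growth range, and the other 5 were below every growth library. Its log2 fold change was -0.23 ± 0.07 (adjusted p = 0.0115). Smg9 (ENSMUSG00000002210, chromosome 7, 24099044 to 24122203, plus strand), of nonsense-mediated mRNA decay, measured 21.1, 22.9 and 24.7 CPM in functional libraries and 24.9, 27.4 and 29.6 CPM in growth libraries. The sides came close without overlapping, and the log2 fold change was -0.25 ± 0.08 (adjusted p = 0.0123). Gins3 (ENSMUSG00000031669, chromosome 8, 96360081 to 96371688, plus strand), a subunit of the GINS complex of the replicative helicase, measured 25.4, 28.8 and 30.7 CPM in functional libraries and 28.7, 34.6 and 39.2 CPM in growth libraries. ZsGreen 3 was the low growth library and overlapped the functional side, and the log2 fold change was -0.27 ± 0.08 (adjusted p = 0.0120). It was the 1 member of the replication list called with 6 a side only.

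The other leading lower genes have mixed roles. B9d2, of the transition zone of cilia, had the largest fall of the 24 at -0.43 (adjusted p = 0.0127). Qsox2, a sulfhydryl oxidase, fell by 0.28 (adjusted p = 0.00676), Hcfc2, a host cell factor, by 0.27 (adjusted p = 0.00849) and the anthrax toxin receptor Antxr1 by 0.27 (adjusted p = 0.00883). Nkiras2, a Ras-like protein that interacts with an NF-kB inhibitor, fell by 0.25 (adjusted p = 0.00986), and R3hcc1 fell by 0.35 (adjusted p = 0.0102).

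A smaller group of genes called with 6 a side only came from lists of pathways rather than from the top of the ranking, and many of these lie near the threshold. In the list of mTORC1 and amino acid sensing, 4 of 35 tested members were of this kind, 2 in each direction, against 3.42% of all tested genes. With every call counted, 11 of the 35 in the mTORC1 list were higher and 9 lower, from -0.66 to 2.10 on the log2 scale. That is 57.1% called, against 54.2% of all tested protein-coding genes. Rheb, the GTPase that activates mTORC1, averaged 80.2 ± 5.38 CPM in functional and 89.8 ± 3.98 CPM in growth libraries, a log2 fold change of -0.16 (adjusted p = 0.0233). Deptor, an mTOR-bound inhibitor, averaged 13.9 ± 1.85 CPM in functional and 17.7 ± 3.13 CPM in growth libraries, a log2 fold change of -0.34 (adjusted p = 0.0334). Akt1s1, another mTORC1-bound inhibitor also known as PRAS40, averaged 46.9 ± 3.84 CPM in functional and 40.3 ± 4.71 CPM in growth libraries, a log2 fold change of 0.22 (adjusted p = 0.0365). The 4th, the arginine sensor Castor1, is named because the count is small and was below the level asked of named genes, at 1.08 ± 0.325 CPM in functional and 0.253 ± 0.223 CPM in growth libraries. Rheb stayed called without any 1 library but not with scaling to library totals (adjusted p = 0.0674) or with no filter (adjusted p = 0.0849), whereas Deptor lost its call without any of 6 of the 12 libraries and Akt1s1 without any of 9.

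Single members of other lists were called with 6 a side only as well, such as 1 of 41 in the mitochondrial ribosome and 1 of 43 in nuclear transport. Over all tested genes the share was 3.42%. Tsg101, a subunit of the ESCRT machinery that sorts endosomal cargo, measured 44.9, 49.4 and 56.1 CPM in functional libraries and 50.6, 58.3 and 65.3 CPM in growth libraries, with a log2 fold change of -0.22 (adjusted p = 0.0155). The sides overlapped and Tsg101 stayed called without any 1 library, though it missed the threshold without ETV6 WT 1, I209S P214L 1 and ZsGreen 1 together (adjusted p = 0.0629). Atg10, a conjugating enzyme of autophagy, was higher by 0.50 (adjusted p = 0.0238) and lost its call in 3 of the 12 left-out fits. The mitochondrial ribosomal protein Mrpl28 (-0.24, adjusted p = 0.0325), the Mediator subunit Med10 (-0.23, adjusted p = 0.0317) and the polycomb subunit Suz12 (-0.14, adjusted p = 0.0366) lost theirs in 6, 5 and 6 of the 12 fits. The importin Kpna4 (0.12, adjusted p = 0.0426) and the lysosomal galactosidase Glb1 (0.16, adjusted p = 0.04998) lost theirs in 11 and 10 of 12. Glb1 was 0.10 (adjusted p = 0.260) without ETV6 WT 1 and I209S P214L 1.

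The promoters of 3 of these genes are shown because the tested factor belongs to the ETS family, whose members bind around GGAA. The 8-base motif CCGGAAGT, or its reverse complement ACTTCCGG, was searched on both strands from 250 bases before to 50 after the annotated start of transcription. The sequences are RefSeq's for GRCm38.p6, an older build than the mm39 of the counts, and run 5′ to 3′ along the strand of the gene, with the motif in capitals.
Atpsckmt, chr15:31601866-31602165, plus strand: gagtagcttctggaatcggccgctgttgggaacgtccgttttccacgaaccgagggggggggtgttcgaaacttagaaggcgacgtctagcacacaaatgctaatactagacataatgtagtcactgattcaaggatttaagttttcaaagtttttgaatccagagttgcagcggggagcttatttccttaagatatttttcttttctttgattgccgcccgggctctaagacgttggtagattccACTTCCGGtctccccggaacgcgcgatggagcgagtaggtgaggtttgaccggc
Tsg101, chr7:46919920-46920219, minus strand: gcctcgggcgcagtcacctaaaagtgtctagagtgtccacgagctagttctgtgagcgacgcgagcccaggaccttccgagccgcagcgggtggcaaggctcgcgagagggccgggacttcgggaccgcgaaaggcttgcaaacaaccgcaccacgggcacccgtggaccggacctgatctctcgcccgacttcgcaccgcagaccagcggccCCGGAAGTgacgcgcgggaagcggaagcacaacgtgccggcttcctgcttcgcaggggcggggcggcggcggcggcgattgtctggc
Akt1s1, chr7:44850122-44850421, plus strand: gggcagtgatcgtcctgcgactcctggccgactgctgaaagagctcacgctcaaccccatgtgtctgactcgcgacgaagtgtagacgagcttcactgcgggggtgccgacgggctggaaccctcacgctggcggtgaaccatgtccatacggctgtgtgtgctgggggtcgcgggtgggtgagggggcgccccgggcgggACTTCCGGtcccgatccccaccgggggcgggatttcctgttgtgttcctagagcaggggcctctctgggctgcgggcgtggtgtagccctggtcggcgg

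A promoter sequence was matched for 25 of the 35 named genes called with 6 a side only, and 6 of them held the motif: Trim46 and Akt1s1 among the higher, and Atpsckmt, Nkiras2, Gins3 and Tsg101 among the lower. Over all tested protein-coding genes with a promoter sequence, 909 of 9078 held it (10%). The share was 8.41% among genes higher and 10.3% among genes lower with 6 a side. Among genes called with 6 a side only it was 7.98% of the higher (13 of 163) and 10.8% of the lower (12 of 111). These shares lie near that of all promoters. A match describes letters in this window and not binding.

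The fixed lists were counted over all calls with 6 a side, not only over the 506. For comparison, all 14794 genes had a median log2 fold change of 0.02, with 23.2% called higher and 23% lower. Of the tested protein-coding genes, the kind these lists hold, 54.2% were called in either direction. Of 41 proteins of the mitochondrial ribosome 31 were lower and none higher with 6 a side, with a median of -0.29, and 21 of the 31 fell by less than 0.5. The same list had 25 members lower in ETV6 WT against ZsGreen, 13 in ETV6 WT against P214L, 17 in I209S P214L against P214L and 28 in I209S P214L against ZsGreen, where 37.7%, 29.2%, 33% and 41.5% of all tested genes were called in either direction. Over all tested genes 46.2% were called in either direction with 6 a side, so a gain in calls was not particular to this list. Some lists had no such gain. The tRNA synthetases had 18 members lower in ETV6 WT against ZsGreen and 17 with 6 a side. Core splicing factors had 31 lower in I209S P214L against ZsGreen and 30 with 6 a side. In the mitochondrial ribosome, Mrps9 (53.2 ± 2.29 CPM in functional and 59.6 ± 5.18 CPM in growth libraries, SD, n = 6 each) is an example of a small fall at -0.16, adjusted p = 0.0457. Of 40 proteins of the cytosolic ribosome 30 were lower and none higher, with a median of -0.27, and 28 of the 30 fell by less than 0.5. Rpl4 averaged 3543 ± 94.9 CPM in functional and 3959 ± 212 CPM in growth libraries (-0.16, adjusted p = 0.00593), without overlap. Processed copies of ribosomal protein genes can take part of such reads.

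Other machineries had members lower too. In the proteasome 25 of 34 subunits were lower and none higher, with a median of -0.32, and 24 of the 25 fell by less than 0.5. Psmc5, an ATPase of the regulatory particle, averaged 88.4 ± 4.96 CPM in functional and 103 ± 3.55 CPM in growth libraries (-0.23, adjusted p = 0.00148). In the tricarboxylic acid cycle 17 of 20 enzymes were lower and none higher, 15 of them by less than 0.5; Dlst, of the 2-oxoglutarate dehydrogenase complex, averaged 142 ± 4.1 CPM in functional and 183 ± 6.4 CPM in growth libraries (-0.37, adjusted p = 2.38e-06). Complex I had 19 of 34 subunits lower and 1 higher, Ndufa6 at 0.36 (adjusted p = 0.000118). Core splicing factors had 30 of 39 lower and 3 higher, and the higher were Sf3b1, Srsf5 and Snrnp70. Nuclear transport had 30 of 43 lower and 2 higher, Kpna4 and Tnpo2. RNA polymerase subunits had 12 of 26 lower and 2 higher. Chaperonin and prefoldin genes had 13 of 16 lower, and tRNA synthetases 17 of 20, with none higher in either list.

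Proliferation genes fell further. Of 26 cell cycle and mitosis genes 25 were lower, with a median of -0.65, and of 32 DNA replication genes 30 were lower and 1 higher, with a median of -0.57. Mki67, the proliferation marker, measured 556, 608 and 686 CPM in functional libraries and 844, 953 and 1072 CPM in growth libraries, without overlap (-0.65 ± 0.07, adjusted p = 5.56e-07). Fanconi and homologous recombination genes had 20 of 30 lower and 2 higher, Brca2 and Fancg.

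Several lists had more members higher than lower on the functional side. Of 37 lysosome and V-ATPase genes 27 were higher and 3 lower, with a median of 0.41, and 15 of the 27 rose by less than 0.5. Autophagy had 18 of 37 higher and 5 lower. Sqstm1, an autophagy receptor, averaged 1048 ± 127 CPM in functional and 263 ± 42.7 CPM in growth libraries (1.99, adjusted p = 1.81e-11), while Becn1, of the PI3-kinase complex that starts autophagosomes, averaged 118 ± 7.04 CPM in functional and 101.5 ± 7.55 CPM in growth libraries (0.21, adjusted p = 0.00666). Endosome sorting had 16 of 35 higher, 14 of them by less than 0.5, and 6 lower. In the RAS-MAPK and PI3K cascade 20 of 38 were higher, 16 of them by less than 0.5, and 8 lower. The kinase Akt1 averaged 437 ± 30 CPM in functional and 368 ± 16.7 CPM in growth libraries (0.25, adjusted p = 0.000865) and the RAS regulator Nf1 88.7 ± 7.68 CPM in functional and 76.1 ± 6.12 CPM in growth libraries (0.22, adjusted p = 0.0115). Hras fell by 0.29 (adjusted p = 0.0151), while gene-level Nras, which can include the NRAS G12D construct, was at -0.05 (adjusted p = 0.534). JAK-STAT and cytokine receptor genes had 17 of 26 higher and 4 lower, and interferon response genes 24 of 32 higher and 4 lower, with a median of 0.67.

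Some lists had members called on both sides. The share called was below the 46.2% of all genes, and the 54.2% of protein-coding genes, in the first 4 of these. In peroxisome and fatty acid oxidation 5 of 33 were higher and 4 lower, in the COPI and COPII coats 2 of 21 higher and 4 lower, and in Mediator 3 of 30 higher and 7 lower, with Med12 at 0.37 (adjusted p = 6.11e-06) and Med14 at -0.49 (adjusted p = 1.36e-05). Corepressors and histone deacetylases, the partners through which ETV6 is known to repress, had 7 of 33 higher and 6 lower, with Hdac7 at 1.30 (adjusted p = 2.92e-09) and Hdac2 at -0.62 (adjusted p = 2.27e-07). Polycomb and DNA methylation genes had 8 of 22 higher and 7 lower, among them Cbx8 and Suz12 with 6 a side only. ETS factors had 7 of 17 higher and 5 lower, with Erg lowest at -2.54 (adjusted p = 3.61e-10). Gabpa, an ETS activator of nuclear genes for mitochondria, was at -0.24 (adjusted p = 0.00191). BCL2 family and caspase genes had 7 of 27 higher and 9 lower, with values from -3.64 to 0.91. The 1 tested T cell or fibroblast marker was not called.

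**Figure D4:**
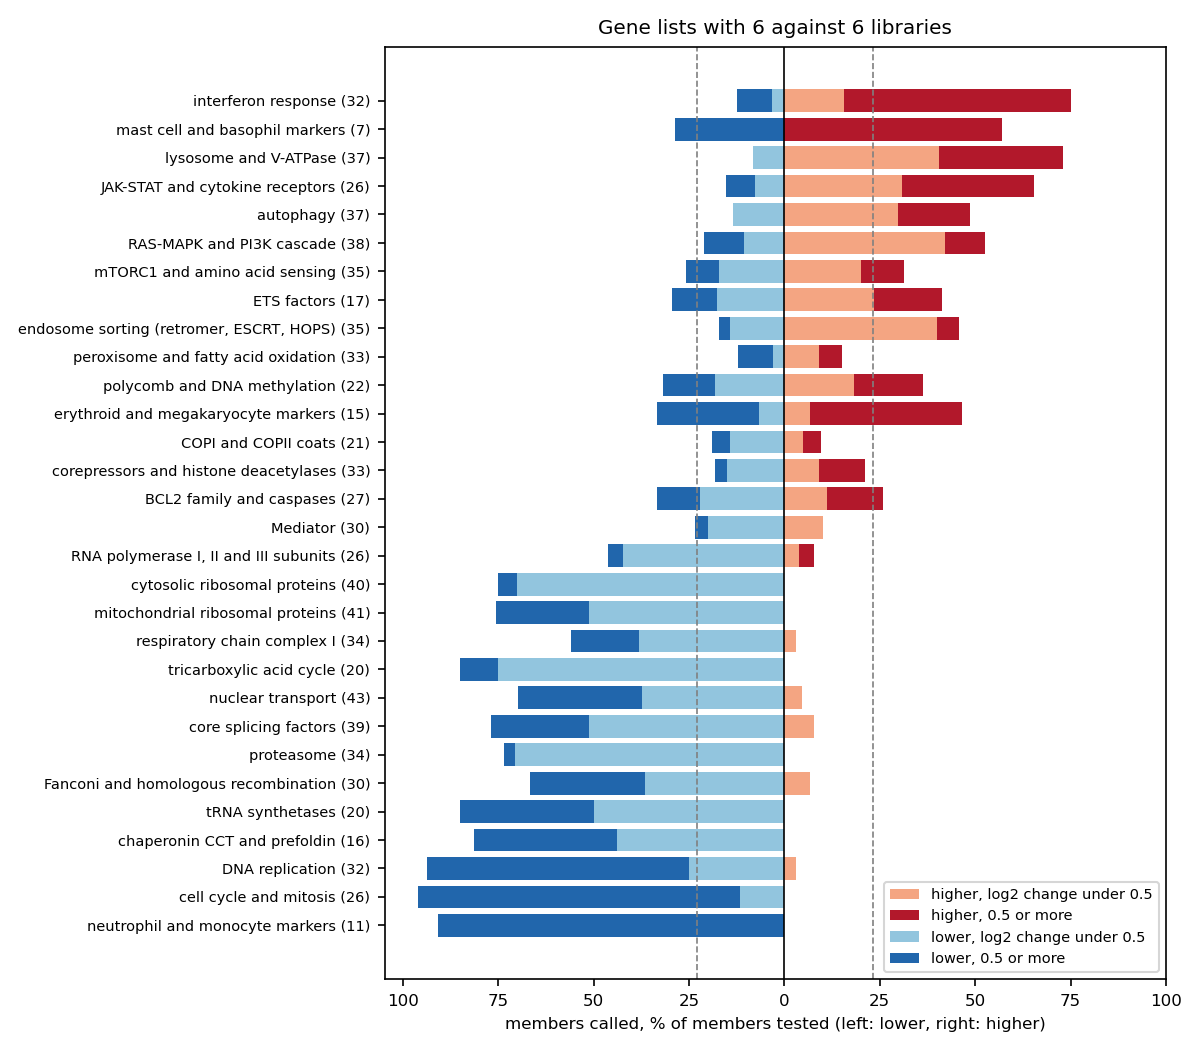
Members of 30 gene lists called with 6 a side, as percent of members tested (number in brackets): bars to the right are higher and bars to the left lower on the functional side, with pale colours for changes under 0.5 on the log2 scale. Dashed lines mark the shares over all tested genes, 23.2% higher and 23% lower. Pale bars make up most of the ribosomal, proteasome and tricarboxylic acid cycle rows.

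As a scale for these small changes, the largest rises with 6 a side included Angptl2, a secreted angiopoietin-like protein, at 102, 138 and 187 CPM in functional libraries and 3.66, 5.15 and 6.65 CPM in growth libraries, and Parvb, an adhesion protein, at 98.9, 107 and 127 CPM in functional libraries and 3.56, 4.91 and 7.7 CPM in growth libraries. The largest falls included Mmp8, a neutrophil collagenase, at 0, 0 and 0.0697 CPM in functional libraries and 4.52, 10.1 and 18.5 CPM in growth libraries. These 3 genes were taken from called protein-coding genes with a mean of at least 5 CPM whose libraries did not overlap between the sides. Their lack of overlap was therefore fixed by the choice.

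Small changes were also followed between 2 sets of 6 libraries that share no library. In a fit of its own 6 libraries, ETV6 WT against ZsGreen had 4888 calls (33%) and an unadjusted p under 0.05 for 41.6% of the genes. It left 1265 genes short of a call, with an unadjusted p under 0.05 and an adjusted p at or above it. Their median absolute log2 fold change was 0.34. In the 6 libraries of I209S P214L and P214L, 89.7% of them had the same sign and 49.3% had the same sign with an unadjusted p under 0.05. Over all tested genes, which include the called ones, these shares were 79.4% and 42.5%. For genes with an unadjusted p of 0.5 or more in ETV6 WT against ZsGreen they were 55.9% and 9.4%. In the reverse direction, I209S P214L against P214L had 5480 calls (37%) and an unadjusted p under 0.05 for 44.9% of the genes. The 1158 genes short of a call there had the same sign in 87.2% and the same sign with an unadjusted p under 0.05 in 39.6%, against 79.4% and 39.9% over all tested genes. For genes with an unadjusted p of 0.5 or more in I209S P214L against P214L these shares were 56.2% and 6.86%. The same-sign share was thus above that of all genes in both directions, while the share with a low p was above that of all genes in 1 direction only. In both directions the 2 shares were above those of genes with an unadjusted p of 0.5 or more. Of the 1265 genes 86 were among those called with 6 a side only, and of the 1158 genes 175 were, so these shares mostly describe other genes. The 2 sets share no library, but ETV6 WT 1 and I209S P214L 1 were correlated (r = 0.53). Other pairs of an ETV6 WT with an I209S P214L library lay between r = -0.39 and 0.25. The effect of this on the shares was not tested. These shares are descriptions over genes, which are not independent replicates.

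Pooling joins constructs that differ among themselves. Within the growth side, P214L against ZsGreen gave 751 calls (5.08%), and within the functional side I209S P214L against ETV6 WT gave 5 (0.0338%). The change from growth to functional side differed between ETV6 WT against ZsGreen and I209S P214L against P214L for 187 genes (1.26%). None of the 506 genes was among any of those calls, which follows in part from how the 506 were chosen. Conversely, 940 genes were called in at least 1 comparison of 3 against 3 and not with 6 a side.

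The membership of the 506 depended on single libraries and on the filter. With any 1 library left out, 276 to 351 of the 506 were still called with the remaining 11, fewest without I209S P214L 1 and most without ZsGreen 1. Without ETV6 WT 1 and I209S P214L 1 together 217 were still called, and without those and ZsGreen 1 together 243. With no filter on low counts 266 were still called. The plot of genes still called gives the count for each setting.

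**Figure D5:**
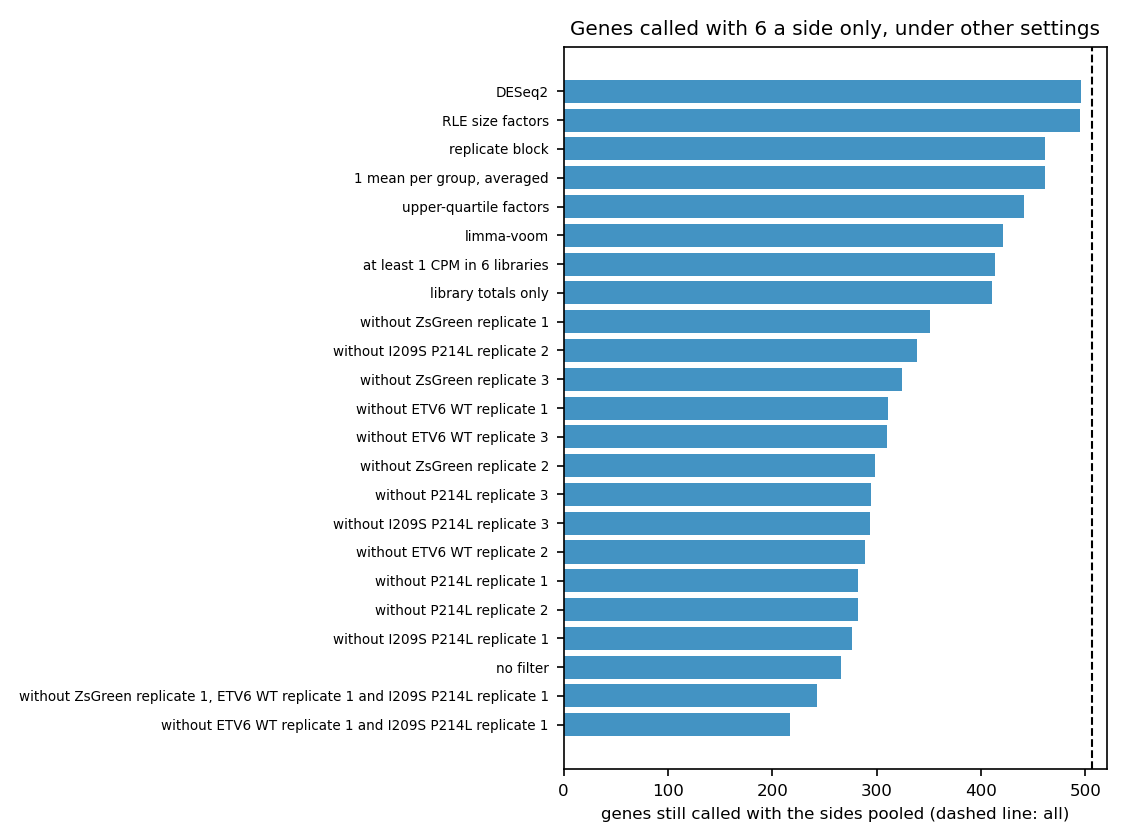
Genes of the 506 called with 6 a side only that were still called with the sides pooled under 23 other settings; the dashed line marks all 506. Other tools and scalings kept 411 to 496 of them, single libraries left out kept 276 to 351, and no filter on low counts kept 266.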

How the data were processed

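Poly-A RNA libraries were aligned to mm39 with HISAT2 2.0.5 and counted per gene with featureCounts 1.5.0-p3, per the submitters' processing notes. The protocol describes directional and non-directional libraries, so strand use is unknown and overlapping or antisense genes are uncertain. Per the file headers, the authors deposited raw counts for 12 libraries, FPKM per gene, and log2 fold changes with p-values and adjusted p-values for their own comparisons. Only the counts were analysed; the authors' pooled comparison was set beside the result. Each symbol's row was followed by its gene identifier.

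Counts were fitted in R 4.3.3 with edgeR 4.0.16 (filterByExpr over the 4 groups, TMM, quasi-likelihood test, 1 mean per side). The comparisons of 3 against 3 came from a fit with 1 mean per group. P-values were adjusted by Benjamini-Hochberg over the 14794 genes tested, and a call is an adjusted p under 0.05. CPM use TMM factors. The scripts were tested on simulated data. DESeq2 1.42.0, limma-voom (limma 3.58.1), other scalings and filters, a replicate block and left-out libraries were alternatives. Named were the 12 higher and 12 lower protein-coding genes with the smallest p among those called with 6 a side only and a mean of at least 5 CPM, up to 3 such members of each of 32 lists, 5 largest rises and 5 largest falls, and Etv6, Nras and Mki67. The 5 rises and 5 falls came from called protein-coding genes of that mean level whose libraries did not overlap between the sides. The members and lists were chosen with earlier results of these data known. Some results are not reported here.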

Additional observations from a re-analysis of the deposited data

Results flagged for a closer look

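In 4 of the 96 sets of 6 libraries examined (48 named genes on 2 sides), 1 library stood far from the other 5 by Dixon's test, which chance alone gives in about 1 in 20. Sec14l1 was 55.5 CPM in ETV6 WT 1, against 50.5 CPM in the next functional library. Rheb was 90.7 CPM in I209S P214L 1, against 80.8 CPM in the next. Both libraries are those with the lowest share of 18S RNA. Csta3 was 0.106 CPM in ETV6 WT 3 and Stfa2l1 was 0.215 CPM in I209S P214L 1, each with 0 in the other 5 functional libraries. The change of Wnt10b, a Wnt ligand, differed between ETV6 WT against ZsGreen and I209S P214L against P214L (edgeR, adjusted p = 0.00337), with a rise in both.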

How the results depend on the processing

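No named gene changed direction under any alternative run, and the list medians that changed sign were those of lists within 0.1 of 0. The 6840 calls with 6 a side became 6418 to 6739 with 1 library left out and 6733 to 7104 under other scalings, filters and tools. The 506 genes called with 6 a side only became 363 to 607 with 1 library left out, of which 207 to 284 belonged to the 506. They became 872 when set only against ETV6 WT against ZsGreen and I209S P214L against P214L, and 658 with no filter, of which 144 were shared. With each comparison of 3 against 3 fitted on its own 6 libraries there were 559, of which 334 were shared. Without ETV6 WT 1 and I209S P214L 1 there were 340, of which 188 were higher, and without these and ZsGreen 1 there were 327, of which 173 were higher (173 to 359 over all fits that left libraries out); both removals were chosen after seeing the data. The cause was not tested. Over all groups, replicate numbers paired the libraries little (18 same-number pairs, median r = 0.02, against -0.01 for 36 pairs of unlike number), but not so on the functional side. The 2 pairs above 0.1 were both on the functional side, ETV6 WT 1 with I209S P214L 1 (r = 0.53) and ETV6 WT 3 with I209S P214L 3 (r = 0.25). With the number as a replicate block there were 6896 calls, 432 with 6 a side only, and 461 of the 506 were still called. Named genes kept their side of the threshold in 520 of 576 fits with 1 library left out and in 486 of 528 others. Etv6 passed it in 1 other fit. Calls with 6 a side were 47% to 54.1% higher across settings (50.2% in the reported fit). At this depth, changes under about 0.12 on the log2 scale were not called.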
